A study of Drosophila melanogaster with 6 samples.

Results

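Mediator and TFIID are the large protein assemblies that link enhancer-bound transcription factors to RNA polymerase II, and the levels of their subunit transcripts are described here in wing imaginal discs of Drosophila melanogaster. Members were taken by name, as array features with a single platform gene symbol that starts with MED or Taf and a digit, or that equals kto, skd, CycC, Cdk8, ix or Tbp. This rule found 40 genes among 11303 tested features, each gene with 1 feature. They comprise the 4 genes of the Mediator kinase module, 23 genes of the Mediator core and 13 of TFIID. Another 3 features carried a member's symbol together with that of a second gene (Taf11 with Gdi, MED23 with CG3700, MED9 with CG42518) and were left out, and MED22 and Taf2 were not analysed here.

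Transcripts were measured on 6 single-channel arrays, each of wing disc tissue taken 7 days after transgene expression began. In 3 samples, labelled ap>YAP/Yki+dTcf/Pan-RNAi and called Yki + pan RNAi discs here, the apterous driver expressed YAP/Yki, the transcriptional coactivator that Hippo signalling restrains, and a hairpin against pan. The pan gene encodes dTcf, through which Wg (Wnt) signalling reaches DNA. In the other 3, labelled ap>YAP/Yki and called Yki discs, the same driver expressed YAP/Yki alone. Both groups thus carry the driver and YAP/Yki, and no discs without YAP/Yki and no control hairpin were among the samples. The apterous driver is active in dorsal cells, so each value averages dorsal cells with the transgenes and ventral cells without them, and in such bulk tissue fewer cells of a kind and less RNA per cell cannot be told apart. Values are deposited log2 levels, n = 3 arrays per group, and changes are log2 differences, Yki + pan RNAi minus Yki, with the standard error (SE) and 95% interval of a limma fit to all features. The words rose and fell are used at a Benjamini-Hochberg adjusted p under 0.05, whatever the fold. The levels of pan were not analysed here, so its depletion was not checked. The labels do not say whether the 3 samples of a group came from separate crosses. The p-values therefore reflect variation among these arrays alone, part or all of which may be technical.

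Mediator consists of a head, a middle and a tail held together by the scaffold subunit MED14, and of a separable kinase module of Cdk8, its cyclin CycC, and the large subunits kto (Med12) and skd (Med13). In flies, kto and skd are required for the activation of Wg target genes, where they act downstream of dTcf and its partner Armadillo. TFIID consists of the TATA-binding protein Tbp and its associated factors (TAFs), many of which pair through histone folds, and it places Tbp on the core promoter. The comparison asks whether transcripts of this machinery, and of the kinase module in particular, differ when the DNA-binding factor of the pathway is targeted.

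Transcripts of Mediator and TFIID subunits differed little between Yki + pan RNAi and Yki discs. Of the 40 genes, 3 rose (kto, Taf4 and Taf6), 0 fell and 37 did not pass the test. The share that passed was 7.5%, against 25.5% of all features tested, where 12.1% rose and 13.4% fell. Without adjustment, 8 members had a p under 0.05, against 39.5% of all features, and 17 members (42.5%) had groups that did not overlap, against 44.9% of all features. None of the 40 (0) changed at least 2-fold with an adjusted p under 0.05, a change that 1.53% of all features made. The largest change of a member was the 1.19-fold rise of Taf4, and 22.1% of all features had a larger estimate in either direction.

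The small changes of the subunits did not go with wide errors. The SE of the members had a median of 0.05, with a range of 0.04 to 0.09, against a median of 0.06 for all features. The 95% intervals of all 40 changes, with values as deposited, lay between −0.39 and 0.35. Each thus allows a difference of at most 1.31-fold in either direction on that scaling. The choice of scaling, taken up below, is not covered by these intervals. The median absolute change was 0.08 for the 40 members and 0.13 for all features. The members had a median change of 0.04, close to the 0.03 of all features, and 55.0% of the member changes were above 0, against 57.2% of all. These are descriptions of a list chosen by name and carry no test of the list.

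**Figure D1:**
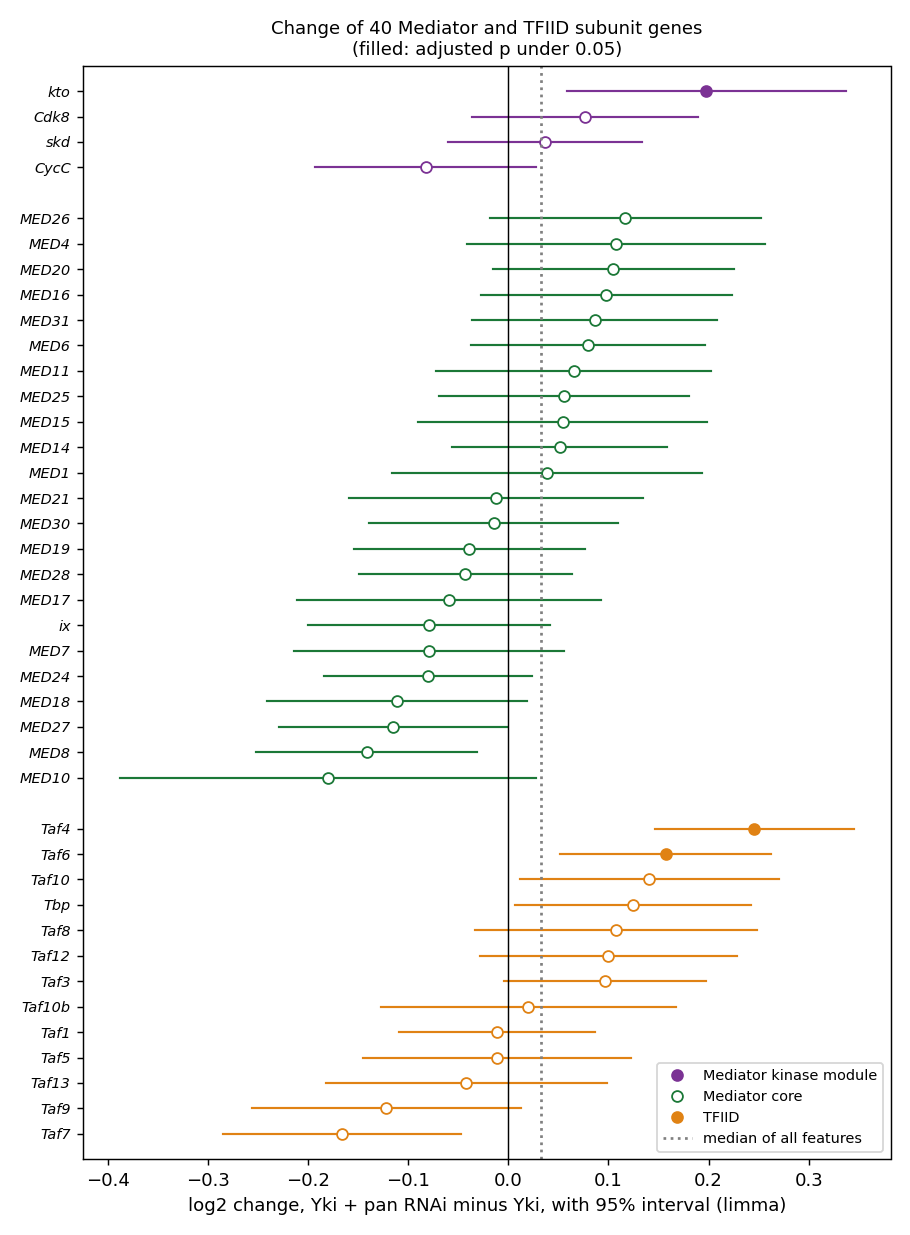
Log2 change (Yki + pan RNAi minus Yki, x axis) of each of the 40 genes (y axis), with the 95% interval of the limma fit, grouped into kinase module, Mediator core and TFIID. Filled points passed an adjusted p under 0.05 (kto, Taf4, Taf6), the solid line marks no change and the dotted line marks the median of all features, 0.03.

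Scaling of the arrays bears on changes of this size. When each array was centred on its own median instead, the median change of all features was 0.09, and 6 members passed the test, all of them higher, against 28.1% of all features. The added members were Tbp, Taf3 and MED26. Under this scaling 29 of the 40 changes were above 0, against 22 as deposited, and 66.0% of the features that passed were higher, against 47.4% as deposited. Counts of directions within Mediator and TFIID therefore rest on the scaling.

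Marker lists of the wing disc and of other cell types were examined in the samples. Among all features 25.5% passed the test, 12.1% as higher and 13.4% as lower, and 39.5% had an unadjusted p under 0.05. Of 7 measured wing disc genes, 5 fell and 1 rose, with log2 summed levels of 12.89 to 13.07 in Yki + pan RNAi discs against 13.51 to 13.52 in Yki discs, and all had levels of at least 7.77 in every array. All 5 measured myoblast markers fell, with log2 summed levels of 10.49 to 10.75 in Yki + pan RNAi discs against 11.91 to 12.13 in Yki discs. Of 5 haemocyte markers 4 rose, with summed levels of 10.23 to 10.52 against 9.91 to 10.10 in Yki discs. Of 5 tracheal markers 3 fell (13.28 to 13.39 in Yki + pan RNAi discs, 13.63 to 13.71 in Yki discs), 1 of 5 neuron and glia markers rose (10.40 to 10.49, against 10.22 to 10.28), and 0 of 3 fat body markers passed (8.09 to 8.22, against 8.30 to 9.26, with 1 at an unadjusted p under 0.05). No zero level is defined on this log2 scale, and the lowest marker value was 5.72. Whether these marker shifts reflect numbers of cells or levels of RNA per cell cannot be told from these arrays. Their part in the subunit changes was not tested.

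Within the kinase module, 1 of the 4 genes rose and 3 did not pass, where 25.5% of all features passed. The gene kto encodes Med12, which in mammals contacts the cyclin and activates the kinase. It was at 10.06, 10.11 and 10.09 in the Yki + pan RNAi arrays, against 9.97, 9.79 and 9.91 in the Yki arrays. All Yki + pan RNAi arrays lay above all Yki arrays, and the Yki arrays were the more scattered group. The change was 0.20 ± 0.06 (SE), or 1.15-fold, with a limma adjusted p of 0.0485 and an interval of 0.06 to 0.34. The call lay close to the threshold. Over 13 alternative settings the adjusted p ran from 0.0189 to 0.128 and the change from 0.15 to 0.25. It stayed under 0.05 without Yki replicate 1, and the call ended on leaving out Yki replicate 2 (change 0.15, adjusted p = 0.128), Yki replicate 3 (0.1004), or Yki + pan RNAi replicate 1 (0.0980), 2 (0.116) or 3 (0.106).

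The gene skd encodes Med13, which tethers the kinase module to the Mediator core and acts with kto in flies. It was at 10.26, 10.27 and 10.30 in Yki + pan RNAi discs, against 10.24, 10.24 and 10.25 in Yki discs. These groups did not overlap, but the difference was 0.04 ± 0.04 (adjusted p = 0.538), with an interval of −0.06 to 0.13. Neither a small rise nor a small fall of skd can thus be told from no change.

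Cdk8, the kinase itself, was at 8.76, 8.77 and 8.77 in Yki + pan RNAi discs, against 8.63, 8.75 and 8.70 in Yki discs, a change of 0.08 ± 0.05 (adjusted p = 0.274). Its Yki + pan RNAi arrays were nearly equal and all lay above the Yki arrays. CycC, the cyclin partner of Cdk8, was at 9.88, 9.78 and 9.82 in Yki + pan RNAi discs, against 9.89, 9.90 and 9.93 in Yki discs. The difference was −0.08 ± 0.05 (adjusted p = 0.233, interval −0.19 to 0.03). Thus the estimate for the cyclin was negative where those for the other 3 module genes were positive, and 1 of these 4 differences passed the test. The kinase module had a median change of 0.06, against 0.03 for all features, and 0.11 against 0.09 with each array centred on its median. All 4 genes had groups that did not overlap, 3 higher and 1 lower, where 23.4% of all features were higher and 21.6% lower without overlap.

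**Figure D2:**
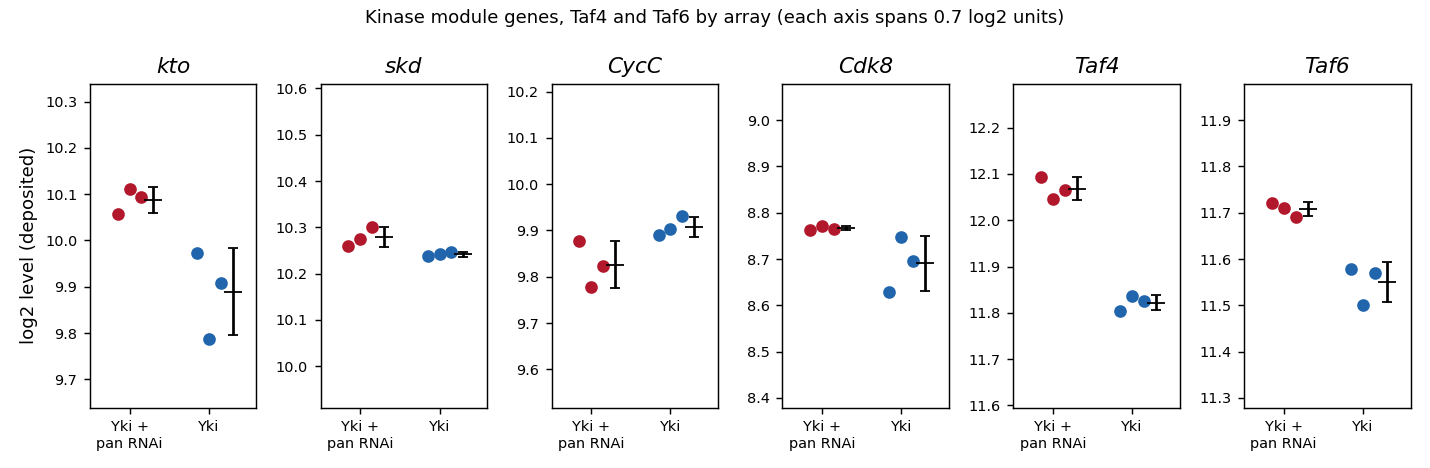
Deposited log2 level (y axis) of the 4 kinase module genes and of Taf4 and Taf6 in each array, Yki + pan RNAi (red) left of Yki (blue), with the mean and SD of each group in black (n = 3). Each panel spans the same 0.7 log2 units around its own middle. In all 6 genes the groups do not overlap, which also holds for 44.9% of all features. Taf4 and Taf6 are the TFIID genes that passed the test. The separation is widest against the spread for Taf4.

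Of the 23 Mediator core genes, 0 rose and 0 fell in the limma test, and 2 had an unadjusted p under 0.05. Among all features 25.5% passed and 39.5% had an unadjusted p under 0.05. With an intensity trend and robust prior in the same tool 1 passed (MED8, change −0.14, adjusted p = 0.0323), and with each array centred on its median 1 other passed (MED26, change 0.17, adjusted p = 0.0428). Changes ran from −0.18 to 0.12, with 11 above 0 and 12 below and a median of −0.01. With centred arrays the median of the core was 0.04, so its sign rests on the scaling. The assignment of subunits to head, middle and tail used here follows structures of yeast and mammalian Mediator.

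Head subunits form the part of Mediator that first contacts RNA polymerase II. Of the 6 measured, 1 had an unadjusted p under 0.05, against 39.5% of all features, and their median change was 0.00. MED8, which in yeast anchors the movable jaw of the head, was at 10.05, 9.94 and 9.99 in Yki + pan RNAi discs, against 10.14, 10.12 and 10.14 in Yki discs. The groups did not overlap, and the change was −0.14 ± 0.05 (adjusted p = 0.0666). MED18, which pairs with MED20 in that jaw, was at 9.66, 9.51 and 9.63 in Yki + pan RNAi discs, against 9.71, 9.70 and 9.73 in Yki discs (adjusted p = 0.178). Its partner MED20 was at 10.03, 10.04 and 10.15 in Yki + pan RNAi discs, against 9.99, 9.97 and 9.94 in Yki discs (change 0.10 ± 0.05, adjusted p = 0.173). The 2 partners thus had estimates of opposite sign, neither of which passed. The other head genes MED6, MED11 and MED17 had estimates of 0.08, 0.07 and −0.06, all with overlapping groups.

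Middle subunits connect the head to the tail and to the kinase module. None (0) of the 8 measured had an unadjusted p under 0.05, against 39.5% of all features. In 0 of them were the groups free of overlap, against 44.9% of all features. MED26, which in human cells recruits elongation factors, had the highest change, with 10.80, 10.86 and 10.71 in Yki + pan RNAi discs against 10.73, 10.67 and 10.62 in Yki discs (0.12 ± 0.06, adjusted p = 0.176). MED10 had the lowest change, with 8.20, 8.27 and 8.0 in Yki + pan RNAi discs against 8.46, 8.31 and 8.25 in Yki discs (−0.18 ± 0.09, adjusted p = 0.175). Its interval, −0.39 to 0.03, was the widest of the 40. MED1, which binds nuclear receptors in mammals, was at 10.31, 10.34 and 10.30 against 10.30, 10.15 and 10.38 in Yki discs, a difference of 0.04 ± 0.07. MED19, a partner of Hox proteins in flies, differed by −0.04 ± 0.05. The remaining middle genes MED4, MED31, MED21 and MED7 had changes of 0.11, 0.09, −0.01 and −0.08.

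The scaffold gene MED14 was at 10.48, 10.50 and 10.49 in Yki + pan RNAi discs, against 10.46, 10.48 and 10.39 in Yki discs (0.05 ± 0.05, adjusted p = 0.439). Tail subunits are the main contacts of sequence-specific activators. Of the 8 measured, 1 had an unadjusted p under 0.05, against 39.5% of all features. MED27 had the lowest change of the tail, with 10.37, 10.45 and 10.42 in Yki + pan RNAi discs against 10.49, 10.53 and 10.57 in Yki discs (−0.11 ± 0.05, adjusted p = 0.124). Those groups did not overlap. MED16 had the highest change of the tail, with 9.51, 9.49 and 9.43 in Yki + pan RNAi discs against 9.36, 9.32 and 9.45 in Yki discs (0.10 ± 0.05, adjusted p = 0.216). The gene ix (Med29), named for its role with Doublesex in female somatic development, was at 9.82, 9.80 and 9.76 in Yki + pan RNAi discs against 9.94, 9.80 and 9.87 in Yki discs, with overlapping groups (−0.08 ± 0.05, adjusted p = 0.291). MED24 was lower without overlap (10.64 to 10.72 in Yki + pan RNAi discs, 10.74 to 10.77 in Yki discs, adjusted p = 0.222), and MED15, MED25, MED28 and MED30 had overlapping groups and changes between −0.04 and 0.06.

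Of the 13 TFIID genes, 2 rose, 0 fell and 11 did not pass, and 5 had an unadjusted p under 0.05. The share that passed was 15.4%, against 25.5% of all features, and 39.5% of all features had an unadjusted p under 0.05. Changes ran from −0.17 to 0.25, with a median of 0.10 as deposited and 0.15 with centred arrays, against 0.03 and 0.09 for all features. With centred arrays 4 of the 13 passed, against 28.1% of all features. Taf4, the subunit that contacts glutamine-rich activators, rose most. It was at 12.09, 12.05 and 12.06 in Yki + pan RNAi discs, against 11.80, 11.84 and 11.82 in Yki discs. Both groups were tight, and the distance between them was several times their spread. The rise was 0.25 ± 0.04 (limma adjusted p = 0.00754, interval 0.15 to 0.35), and it passed in all 13 alternatives, with adjusted p-values of 0.000460 to 0.0347 and changes of 0.23 to 0.30.

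Taf6, which like Taf4 belongs to the structural core of TFIID, was at 11.72, 11.71 and 11.69 in Yki + pan RNAi discs, against 11.58, 11.50 and 11.57 in Yki discs. It rose by 0.16 ± 0.04, or 1.12-fold (adjusted p = 0.0420). All Yki + pan RNAi arrays were above all Yki arrays. The adjusted p ran from 0.00830 to 0.136 over the 13 alternatives, and the call ended on leaving out any 1 of the 6 arrays, with changes between 0.13 and 0.17 (0.0585 without Yki replicate 1, 0.136 without Yki replicate 2, 0.0858 without Yki replicate 3, and 0.119, 0.0974 and 0.0766 without Yki + pan RNAi replicates 1, 2 and 3).

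Taf7, which in human TFIID binds the largest subunit Taf1 and restrains it, had the lowest change within TFIID. It was at 6.66, 6.70 and 6.78 in Yki + pan RNAi discs, against 6.92, 6.86 and 6.86 in Yki discs. The groups did not overlap and the difference was −0.17 ± 0.05, just outside the threshold (adjusted p = 0.0518). It passed, as lower, in 3 of 13 alternatives: after quantile normalization (−0.21, adjusted p = 0.0221), with dim features left out (0.0490) and without Yki + pan RNAi replicate 3 (0.0465). In the others the adjusted p ran up to 0.174, reached with centred arrays. The levels of Taf7 were the lowest of the 40 members. Taf1 itself, the largest TFIID subunit, was at 9.28, 9.31 and 9.26 in Yki + pan RNAi discs, against 9.30, 9.30 and 9.28 in Yki discs (−0.01 ± 0.04).

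Tbp, which binds the TATA element, was at 9.33, 9.29 and 9.26 in Yki + pan RNAi discs, against 9.11, 9.23 and 9.16 in Yki discs. The groups did not overlap (0.12 ± 0.05, adjusted p = 0.110). Taf3, which reads a histone mark of active promoters in mammals, was at 12.03, 12.08 and 12.06 in Yki + pan RNAi discs, against 11.98, 11.94 and 11.95 in Yki discs (0.10 ± 0.04, adjusted p = 0.139). Tbp and Taf3 passed with centred arrays, at adjusted p-values of 0.0488 and 0.0452. Flies have a pair of Taf10 genes that lie next to each other. Taf10 was at 10.10, 10.004 and 10.005 in Yki + pan RNAi discs, against 9.84, 9.88 and 9.96 in Yki discs (0.14 ± 0.05, adjusted p = 0.102). Taf10b, found in the SAGA coactivator in flies, was at 7.74, 7.74 and 7.57, against 7.71, 7.66 and 7.63 in Yki discs (0.02 ± 0.06). The groups overlapped for Taf10b and not for Taf10, and the difference between the 2 estimates was 0.12.

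Taf9, which pairs with Taf6, was at 9.84, 9.87 and 9.79 in Yki + pan RNAi discs, against 9.88, 9.94 and 10.04 in Yki discs (−0.12 ± 0.06, adjusted p = 0.158). Those groups did not overlap, although closely. Taf12, the histone-fold partner of Taf4, was at 10.95, 10.96 and 10.90 in Yki + pan RNAi discs, against 10.91, 10.85 and 10.76 in Yki discs (0.10 ± 0.05, adjusted p = 0.217). Taf8 differed by 0.11 ± 0.06, Taf5 by −0.01 ± 0.06 and Taf13 by −0.04 ± 0.06, all with overlapping groups.

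For 8 pairs of partners or duplicates, chosen after the values were seen, the log2 difference between the genes was taken within each array and compared between the groups. A two-sided exact permutation test of 3 against 3 arrays cannot give a p below 0.1, so no pair could pass a threshold of 0.05, and the values are descriptions only. Taf6 minus Taf9 was 1.88, 1.84 and 1.90 in Yki + pan RNAi discs, against 1.70, 1.56 and 1.53 in Yki discs. Taf4 minus Taf12 was 1.15, 1.08 and 1.16 in Yki + pan RNAi discs, against 0.90, 0.99 and 1.07 in Yki discs. In the kinase module, kto minus skd was −0.20, −0.16 and −0.21 in Yki + pan RNAi discs, against −0.26, −0.45 and −0.34 in Yki discs. These pairs, and likewise Cdk8 with CycC and Taf1 with Taf7, had an exact permutation p of 0.1 (0.16 after adjustment over the 8 pairs), and Taf10 with Taf3, Taf8 or Taf10b had p-values of 0.5, 0.8 and 0.2. Whether the partners shifted by unequal amounts is not shown by these arrays.

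The kinase module was then set beside the Mediator core and TFIID, array by array. The median deviation of the 4 kinase module genes from their means in Yki discs was 0.05, 0.06 and 0.07 in the Yki + pan RNAi arrays, against −0.01, 0.00 and 0.01 in the Yki arrays. For the Mediator core it was 0.01, −0.01 and −0.02 in Yki + pan RNAi arrays, against 0.01, −0.01 and −0.01 in Yki arrays. For TFIID it was 0.08, 0.08 and 0.06 in Yki + pan RNAi arrays, against 0.03, −0.01 and −0.01 in Yki arrays. For all features it was 0.03, 0.02 and 0.03 in Yki + pan RNAi arrays, against 0.00 in each Yki array. The kinase module and TFIID medians were thus above those of the Yki arrays in every Yki + pan RNAi array, as was the median of all features, while the core medians of the groups overlapped. Kinase module minus core was 0.04, 0.07 and 0.09 in Yki + pan RNAi arrays, against −0.02, 0.01 and 0.02 in Yki arrays. TFIID minus core was 0.07, 0.09 and 0.09 in Yki + pan RNAi arrays, against 0.01, 0.00 and 0.00 in Yki arrays. Both offsets from the core separated the groups, so an offset is not particular to the kinase module. They share the same core and are not separate observations. The core median itself lay below that of all features in every Yki + pan RNAi array. In the Yki arrays it lay above that of all features in replicate 1 and below it in replicates 2 and 3. Deviations were taken from the means of the Yki arrays, which keeps the medians of those arrays small by construction. The separation is thus a description only. Kinase module minus TFIID was −0.03, −0.02 and 0.00 in Yki + pan RNAi arrays, against −0.04, 0.01 and 0.02 in Yki arrays, with overlap. Centring an array moves all lists by the same amount and leaves these offsets as they are. The median of the kinase module rests on 4 genes of which 1 passed, and no test was made over the lists.

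**Figure D3:**
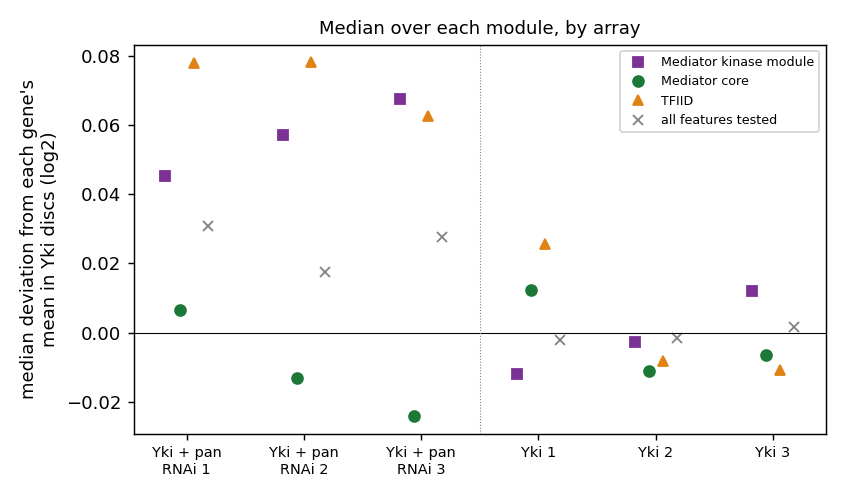
Median over each module of the genes' log2 deviations from their own means in Yki discs (y axis), for each array (x axis), Yki + pan RNAi left of Yki. In the Yki + pan RNAi arrays the kinase module (squares) and TFIID (triangles) lie between 0.05 and 0.08, the Mediator core (circles) between −0.02 and 0.01, and all features (crosses) near 0.02 to 0.03.

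Other lists of the transcription machinery ran from 0.0% to 28.6% of measured genes past the test, against 25.5% of all features. The highest share, that of the nuclear cofactors of Wg signalling (2 of 7 genes), was near that of all features. With the replicate block, or with any 1 array left out, 1 of these 7 genes passed. Of 18 measured genes of the remaining general factors (TFIIA, TFIIB, TFIIE, TFIIF, TFIIH and relatives of Tbp), 0 passed in limma. An unadjusted p under 0.05 was found for 5 of them, against 39.5% of all features. In 4 of the 13 alternatives some passed, 2 as higher with centred arrays, 1 as higher after quantile normalization, 2 as lower with the trend and robust prior and 1 as lower without Yki replicate 1. The gene with the lowest p was hay, a helicase of TFIIH, at 9.77, 9.74 and 9.70 in Yki + pan RNAi discs against 9.90, 9.87 and 9.86 in Yki discs (−0.14 ± 0.04, adjusted p = 0.0561). Of 6 measured polymerase II subunit genes, 1 fell, and the groups did not overlap in 5 (83.3%, against 44.9% of all features). This was Polr2L, a small subunit shared by the 3 nuclear polymerases, at 8.85, 8.89 and 8.93 in Yki + pan RNAi discs against 9.25, 9.18 and 9.23 in Yki discs (−0.33 ± 0.05, adjusted p = 0.00388), and it passed in all 13 alternatives.

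Of 9 measured genes of elongation control, 2 fell. Cdk9, the kinase of P-TEFb, which releases paused polymerase, was at 10.62, 10.59 and 10.57 in Yki + pan RNAi discs, against 10.79, 10.89 and 10.89 in Yki discs. Its fall by 0.26 on the log2 scale (SE 0.05, adjusted p = 0.00989) passed in all 13 alternatives. Nelf-E, of the pausing factor NELF, fell by 0.15 (adjusted p = 0.0440) and passed in 3 of 13 alternatives, with adjusted p-values up to 0.195. It did not pass with centred arrays, quantile normalization, the trend and robust prior, the replicate block or any array left out.

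Of 12 measured SAGA genes, 1 rose, the adaptor gene Ada3 (0.21 ± 0.05, adjusted p = 0.0213), in 7 of 13 alternatives. Among the 6 alternatives in which Ada3 lost its call were those that left out Yki + pan RNAi replicate 1 or 2 or any Yki replicate, with adjusted p-values up to 0.0719 over the alternatives. Of 7 measured nuclear cofactors of Wg signalling, 2 rose. These were osa, a subunit of the Brahma remodelling complex that represses Wg targets, at 12.07, 12.07 and 12.05 in Yki + pan RNAi discs against 11.87, 11.81 and 11.83 in Yki discs (0.23 ± 0.04, adjusted p = 0.00982), and nej, the fly CBP. The rise of osa passed in all 13 alternatives. That of nej was 0.21 ± 0.06 (adjusted p = 0.0356), but it passed in 6 of 13 and ended on leaving out any 1 array, with adjusted p-values up to 0.0975. Of 3 measured testis-specific TAF genes, which replace the general TAFs in spermatocytes, 0 passed and 1 had an unadjusted p under 0.05. This was mia, at 9.09, 9.01 and 8.96 in Yki + pan RNAi discs, against 8.93, 8.87 and 8.81 in Yki discs (adjusted p = 0.0933). The differences between the shares of these lists and of the Mediator and TFIID subunits were not tested.

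**Figure D4:**
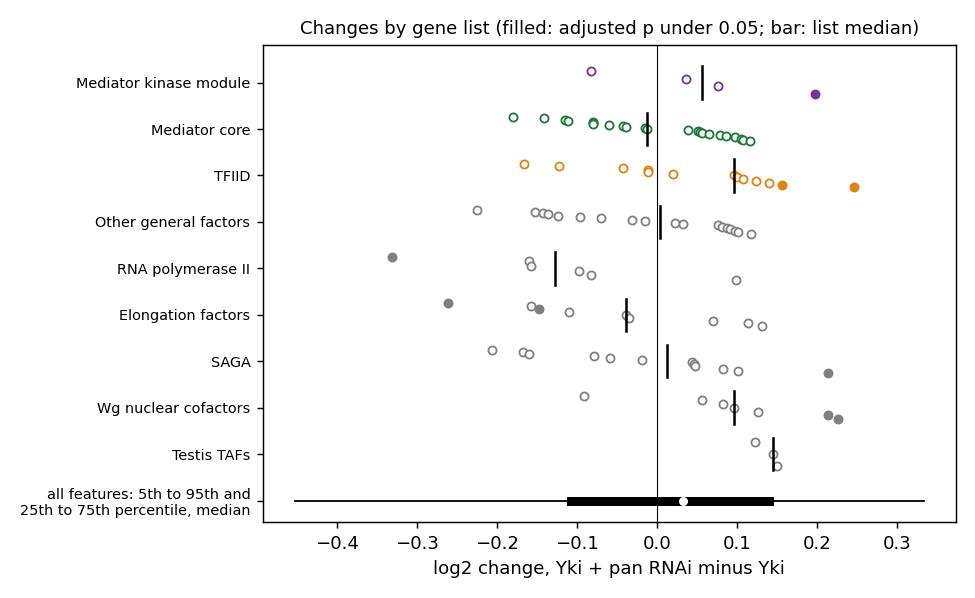
Log2 change (Yki + pan RNAi minus Yki, x axis) of each measured gene of the kinase module, the Mediator core, TFIID and 6 other lists of the transcription machinery, with list medians as black bars and filled points for an adjusted p under 0.05. The bottom row gives the 5th, 25th, 50th, 75th and 95th percentiles of all 11303 features (−0.45, −0.11, 0.03, 0.14 and 0.33), and all 40 members lie between the 5th and the 95th.

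**Figure D5:**
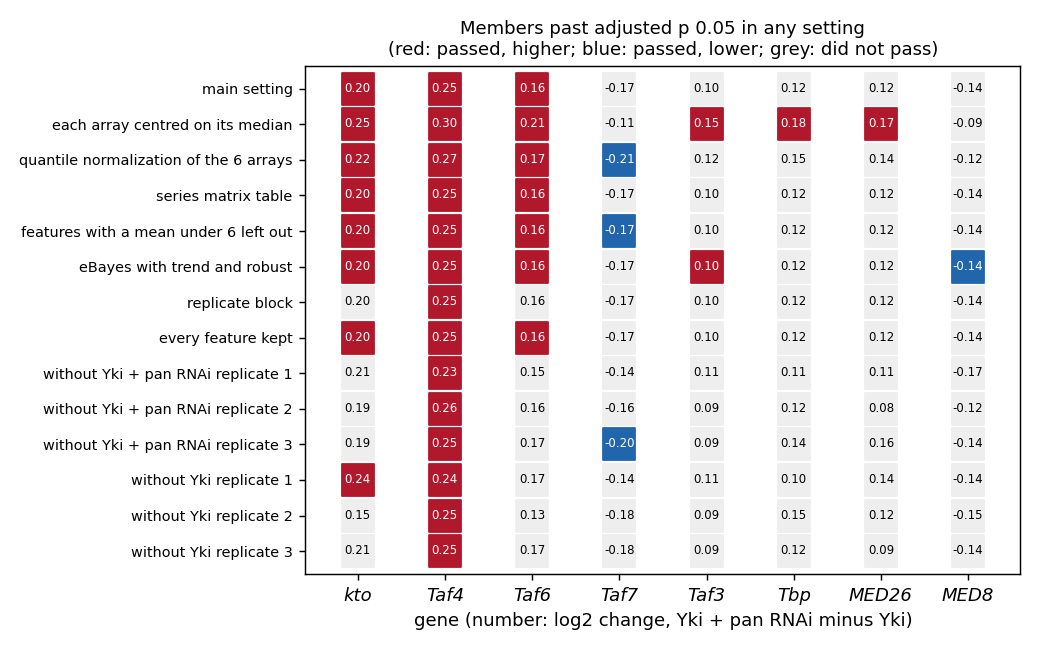
Log2 change (printed number) of the 8 members that passed an adjusted p under 0.05 in any setting (x axis) under the setting used throughout and 13 alternatives (y axis), red where the gene passed as higher, blue where it passed as lower and grey where it did not pass. Taf4 passed in every setting shown, kto in 7 and Taf6 in 6 of the 13 alternatives. The series matrix table and every feature kept are nearly the same fit as the setting used throughout.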

How the data were processed

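The authors deposited log2 expression levels of 6 arrays in a matrix of the whole series and in the series matrix, and the 2 tables differ by at most 5.0e-09. The sources used here do not state how signals were background-corrected, normalized and summarised. Platform symbols were updated through a RefSeq gene table (Release 6 plus ISO1 MT), used for names and neighbours only, and all 40 members matched. Genes with several features were represented by that with the highest mean, leaving 11303 of 11325 features. Groups follow the sample titles. Per the series' design text, the authors selected genes with limma at an adjusted p under 0.05 and at least 2-fold. The same test (limma 3.58.1 in R 4.3.3, lmFit and eBayes defaults, no covariate, Benjamini-Hochberg over all features) was run here. A check on simulated data used 2-fold changes, so it does not bear on changes as small as those of the members. The fold minimum was dropped for single genes.

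The members, gene lists and tests were chosen with earlier results of these data known, and 3 listed symbols were updated after the files were read (mrn, spt4, dysf). Any member could be named. From each other list the rule took at most 4 genes that passed, by p, or else the single gene of smallest p. Alternatives were median centring, quantile normalization, the other table, leaving out features with a mean under 6, an intensity trend with a robust prior, the replicate block, every feature kept, and each array left out. The other table and every feature kept gave nearly the same values as the setting used throughout, so a pass in them adds little. Depth is not defined for arrays, whose number limits the precision. The intended search of promoters for motifs was not made, and no sequences were used here.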

Additional observations from a re-analysis of the deposited data

How the results depend on the processing

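The 13 alternatives reversed no member that passed in either setting. The number of features that passed was 2887, and 1744 to 2435 with 1 array left out. Kinase module members that passed numbered 1, against 0 with the replicate block and 0 to 1 with 1 array left out. TFIID members that passed numbered 2, against 4 with each array centred on its median, 1 with the replicate block and 1 to 2 with 1 array left out. For the Mediator core the count was 0, against 1 with centred arrays and 1 with the trend and robust prior. Centring moved the median changes to 0.11 for the kinase module, 0.0427 for the core and 0.15 for TFIID. The core median was 0.0244 after quantile normalization and −0.0274 to 0.0292 with 1 array left out. Leaving out an array also leaves fewer samples, and for the other settings the cause was not tested. Of the 40 estimates, 7 changed sign with centring and 4 with quantile normalization, none of them of a gene that passed (kto, Taf4, Taf6). The labels do not say whether the replicate numbers pair the samples. Same-numbered arrays had correlations of deviations of −0.13, −0.10 and 0.16, which are too few to decide this. With the replicate block 2159 features and 1 member (Taf4) passed, and kto (limma adjusted p = 0.0966) and Taf6 (0.0938) did not. Nelf-E, Ada3 and nej also lost their calls with this block, while Polr2L, Cdk9 and osa passed. The 2-fold count of features stayed within 1.5 times of 173 in all 13 alternatives.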
